A study of Sus scrofa with 4 samples.

Results

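The genes described here make, carry, bind or sense retinoic acid, the active acid form of vitamin A. They were chosen as 9 named genes, taken where the platform annotation gives a probeset that gene's symbol and no other, and 6 of them have such a probeset: ALDH1A1, RBP4, CRABP2, RARA, RARB and RXRA. These are 6 of 6765 genes named on the array, with 10 probesets in all, and their symbols are unchanged in the current RefSeq gene table. ALDH1A2, CRABP1 and STRA6 have none and were not analysed here. ALDH1A1 was selected on its measured difference, a higher signal in deep than in shallow cultures on these same arrays, so that difference is a description and carries no test. The other genes were taken for their place in the pathway.

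The cells were fibroblasts cultured from deep and from shallow back wounds of 2 Duroc pigs, biopsied at 20 weeks. There were 2 deep and 2 shallow arrays, 1 of each depth from each pig, called here pig 1 and pig 2. All cultures were grown to confluence in medium with fetal bovine serum and had no other treatment in the labels; the animals' age is not given in the sources used here. With 2 animals, the 4 arrays leave 1 residual degree of freedom. The limma p-values below therefore rest mostly on a variance shared over all probesets tested, with 6.88 prior degrees of freedom. They say little on the spread of a gene between animals.

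Retinol travels in blood on the carrier RBP4, enters cells through the receptor STRA6 and is oxidized to retinaldehyde by retinol dehydrogenases. The aldehyde dehydrogenases of the ALDH1A family then make retinoic acid, in a step that is not reversed. Inside the cell the acid is bound by CRABP1 and CRABP2 and broken down by CYP26 enzymes, and in the nucleus it acts through retinoic acid receptors paired with retinoid X receptors. In skin, retinoids are known for their effects on keratinocyte maturation and for lowering collagenase in dermal fibroblasts.

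Signals are in MAS5 intensity units, which can be compared between arrays for 1 probeset but not between probesets. The sums over marker lists given below are therefore led by the brightest probesets of each list and do not weigh its genes equally. The table holds no detection calls, so each signal was set against the highest of 23 control probesets whose targets are foreign to the sample, called here the highest absent control. That control read 21.8 and 30.9 on the deep arrays of pig 1 and pig 2, against 14.8 and 13.6 on the shallow arrays. The arrays also differed in other ways. The actin 3' to 5' ratio, which grows as RNA or its labelling is less complete, was 3.28 and 6.10 on the deep arrays and 1.96 and 2.41 on the shallow arrays. The hybridization controls averaged 3356 and 7652 on the deep arrays and 2446 and 2817 on the shallow arrays. The 28S ribosomal RNA probeset read 4171 and 9146 against 1401 and 1984. The deep array of pig 2 was highest in all these measures. All 9 fibroblast markers measured, such as VIM, DCN, LUM and PDGFRB, were above background on every array, and their summed signal was 43258 and 60933 on the deep arrays against 25365 and 31433 on the shallow arrays. The 8 epithelial markers measured summed to 321 and 169 on the deep arrays of pig 1 and pig 2, against 5760 and 229 on the shallow arrays. All 8 were above background on the shallow array of pig 1. The 6 markers of dividing cells summed to 1059 and 1278 on the deep arrays, against 9154 and 2820 on the shallow arrays. All 6 were lower on both deep arrays than on both shallow arrays, as were 28.4% of all named genes past the filter described below, and CENPF, a kinetochore gene, fell (limma, adjusted p = 0.0453). The 6 markers of smooth muscle and pericytes summed to 4709 and 3465 on the deep arrays, against 669 and 1169 on the shallow arrays. Most of each sum was ACTG2, smooth muscle gamma actin, at 4269 and 2914 on the deep arrays and 492 and 717 on the shallow arrays. ACTG2 rose (limma, adjusted p = 0.0351), while RGS5 had opposite signs in the pigs, with log2 differences of 1.88 in pig 1 and -0.63 in pig 2. Without the pig as a block, or without the filter, 0 probesets were called, so both calls were lost. Endothelial markers summed to 318 and 374 on the deep arrays and 739 and 249 on the shallow arrays, and the leukocyte, adipocyte and melanocyte lists to between 50.6 and 156 on any array. The part of these shifts in the retinoid values was not tested. In bulk RNA of this kind, fewer cells of a type and less RNA per cell cannot be told apart.

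ALDH1A1, the retinaldehyde dehydrogenase of the set, was higher in deep than in shallow cultures of both pigs, and it was the one gene of the 6 that stood far above background in deep cultures. Its brightest probeset read 1036 in pig 1 and 3114 in pig 2 on the deep arrays, against 188 and 58.3 on the shallow arrays. The groups did not overlap: the lower deep array was above the higher shallow array. Means were 2075 ± 1469 in deep and 123 ± 91.5 in shallow cultures (SD, n = 2 each). The signal was 47.5 and 101 times the highest absent control on the deep arrays and 12.6 and 4.29 times on the shallow arrays, so the gene was above background in all 4 cultures.

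The ALDH1A1 difference was much larger in pig 2 than in pig 1. Deep over shallow was 5.52-fold in pig 1 and 53.5-fold in pig 2, and the log2 differences were 2.47 and 5.74, with a mean of 4.10. Pig 2 had the higher deep array, by 3.00-fold over that of pig 1, and the lower shallow array, which pig 1 exceeded by 3.22-fold. The pigs therefore stood in opposite order at the 2 depths. The mean log2 difference ranked 4 of 5272 named genes past the filter on dim probesets, which is the kind of value ALDH1A1 was chosen for.

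A second ALDH1A1 probeset gave the same order of depths with a smaller difference. It read 167 and 408 on the deep arrays of pig 1 and pig 2, against 43.8 and 36.6 on the shallow arrays. Deep over shallow was 3.81-fold in pig 1 and 11.2-fold in pig 2, with a mean log2 difference of 2.70. On the shallow arrays it lay 2.95 and 2.70 times above the highest absent control, nearer to background than the brightest probeset. The shallow cultures of the pigs were close by this probeset, with pig 1 1.20-fold above pig 2, where the brightest probeset put them further apart. Both probesets are of the same gene on the same arrays and are no replicates of each other.

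The ALDH1A1 values without the arrays that stand apart are given as a description, since the gene was selected on these same arrays. With a deep array left out the log2 difference of the brightest probeset was 4.90 (pig 1) or 3.31 (pig 2), and with a shallow array left out 4.95 (pig 1) or 3.26 (pig 2). The deep array of pig 2 had the highest actin ratio and the shallow array of pig 1 the epithelial signal. Between the remaining arrays, deep of pig 1 and shallow of pig 2, it was 4.15. That is 1 array a side from different animals, chosen after the data were seen, and it says nothing on the part of RNA quality or epithelial cells, which was not tested.

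**Figure D1:**
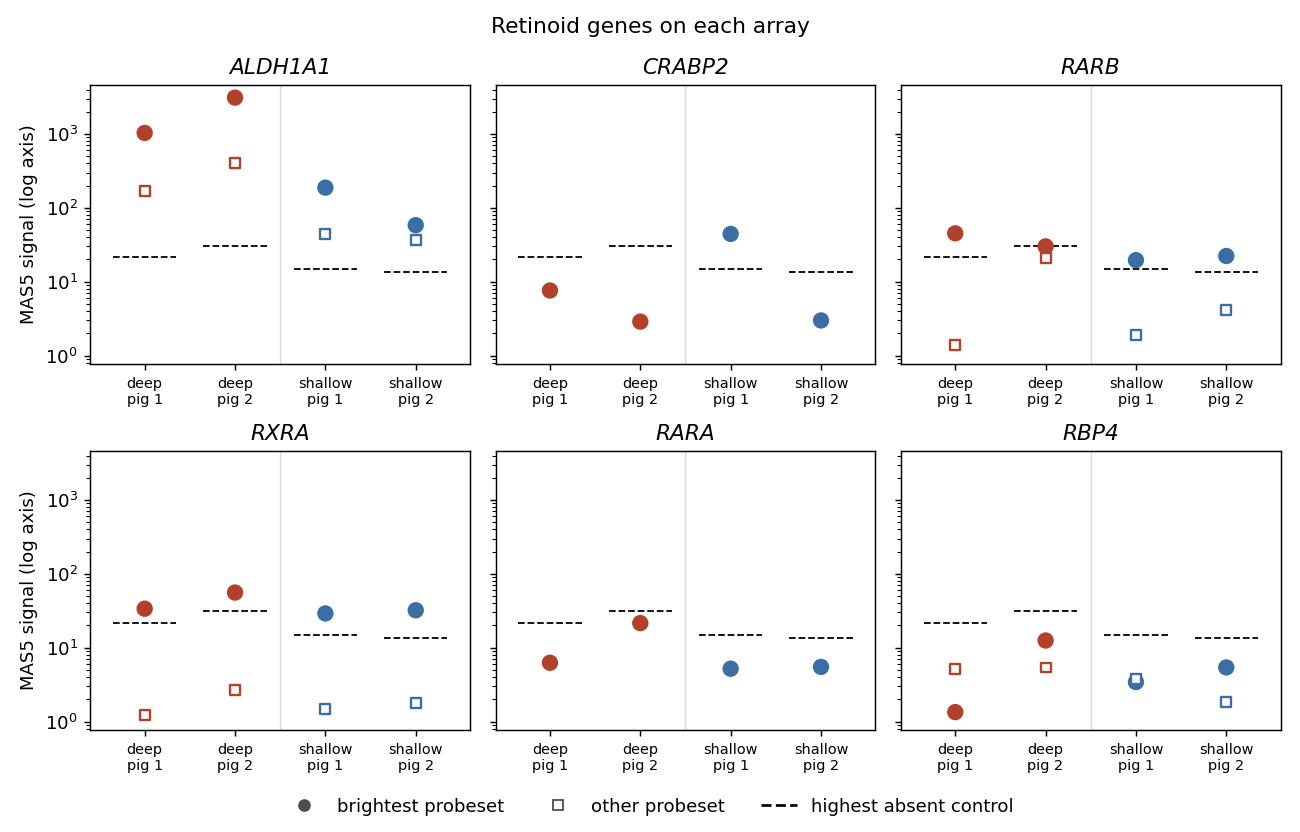
MAS5 signal (log axis) of the 6 retinoid genes on the 4 arrays, deep in red and shallow in blue; filled circles are the brightest probeset of a gene, open squares its other probeset, and dashes the highest absent control of each array. ALDH1A1 lies above the dashes on all 4 arrays and highest on the deep ones. The brightest RXRA probeset lies just above the dashes, and the other RXRA probeset, RARA and RBP4 lie below them throughout.

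The binding proteins were at background in most cultures. RBP4, the plasma carrier of retinol, is made mainly by liver. Its brighter probeset read 1.34 and 12.5 on the deep arrays, against 3.42 and 5.40 on the shallow arrays, below the highest absent control on all 4. Its other probeset, between 1.82 and 5.38, was also below background throughout, so no fold is given for RBP4.

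CRABP2, which carries retinoic acid to its nuclear receptors, was above background on 1 array. It read 7.60 and 2.88 on the deep arrays of pig 1 and pig 2, against 44.4 and 2.99 on the shallow arrays. The shallow array of pig 1 was 2.99 times its highest absent control, and the other 3 arrays were below theirs. Epithelial cells of skin are a known site of CRABP2 expression, and that shallow array is the one with the epithelial markers; their part in the CRABP2 signal was not tested. CRABP2 did not reach the filter on dim probesets and was not tested between depths.

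The nuclear receptors of the set were dim. RARA, the alpha retinoic acid receptor, read 6.25 and 21.5 on the deep arrays and 5.19 and 5.49 on the shallow arrays, below the highest absent control on all 4. RARB, the beta receptor and itself a gene that retinoic acid induces, read 45.2 and 30.1 on the deep arrays of pig 1 and pig 2, against 19.6 and 22.3 on the shallow arrays. Both deep arrays were above both shallow arrays, but on the deep array of pig 2 the signal was 0.972 times the highest absent control. The RARB difference was 1.21 in pig 1 and 0.43 in pig 2 on the log2 scale, a mean of 0.82 ± 0.50 (SE; limma, adjusted p = 0.518), with a 95% interval from -0.34 to 1.98. A second RARB probeset lay below background on every array.

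RXRA, the alpha retinoid X receptor that partners the retinoic acid receptors, was above background in all 4 cultures. Its brighter probeset read 33.7 and 55.8 on the deep arrays of pig 1 and pig 2, against 29.1 and 32.1 on the shallow arrays, 1.55 and 1.80 times the highest absent control in deep and 1.96 and 2.37 times in shallow. The deep arrays were above the shallow ones by a small margin, 0.50 ± 0.46 on the log2 scale (SE; limma, adjusted p = 0.686), with a 95% interval from -0.55 to 1.56. The highest absent control was itself higher on the deep arrays. A second RXRA probeset, between 1.21 and 2.65, was below background on every array.

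Of the 6 genes, 3 passed the filter on dim probesets, ALDH1A1, RARB and RXRA, and the 2 that could be tested gave 0 calls by limma at an adjusted p of 0.05. Neither had an unadjusted p under 0.05 (0.140 for RARB and 0.303 for RXRA). Over all 14399 probesets tested, 0.340% passed. The wide intervals leave differences of either sign or of more than 2-fold possible for both receptors.

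**Figure D2:**
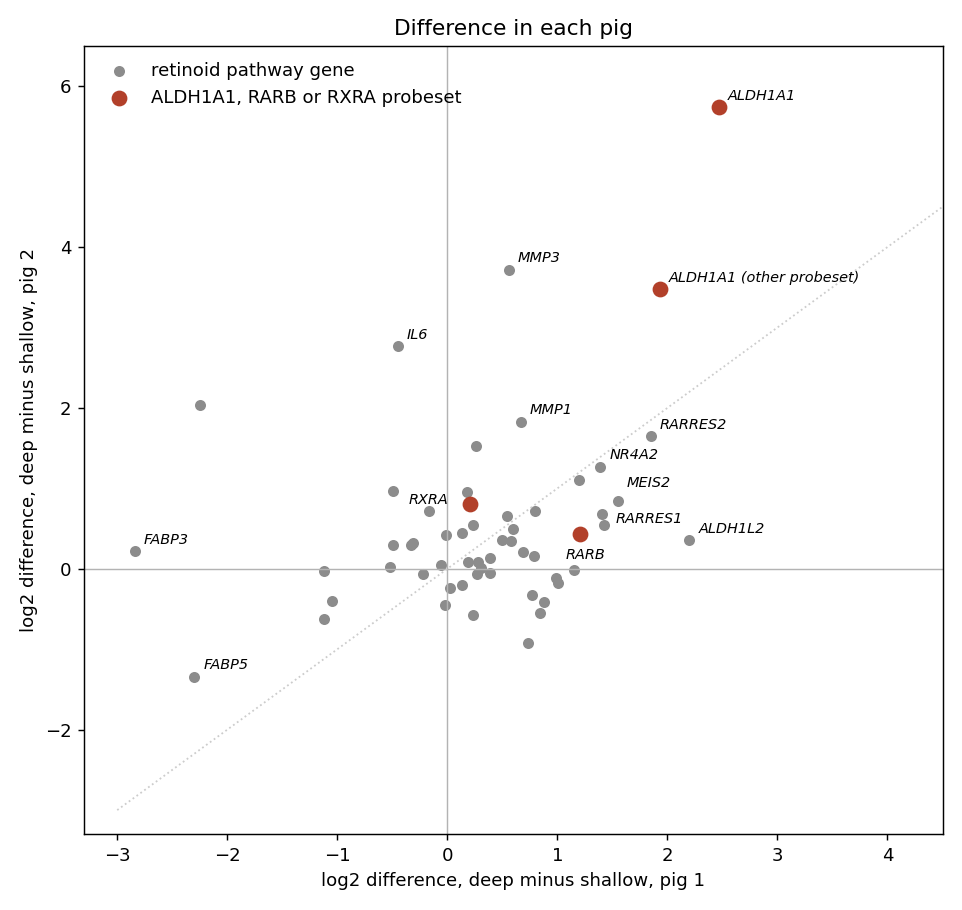
Log2 difference, deep minus shallow, in pig 1 (horizontal) and pig 2 (vertical) for the ALDH1A1, RARB and RXRA probesets past the filter (red) and 53 other genes of retinoid metabolism and response (grey); the dotted line marks equal differences. Both ALDH1A1 probesets lie in the upper right, above the line, with 2.47 in pig 1 and 5.74 in pig 2 for the brightest; FABP5 is lower in deep cultures of both pigs and FABP3 in pig 1.

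The rest of the pathway was followed through 9 lists with 141 genes in all, of which 78 were on the array and 53 passed the filter. By limma 0 rose and 0 fell at an adjusted p of 0.05 (smallest adjusted p = 0.0863), against 0.398% of the 5272 named genes past the filter. At an unadjusted p under 0.05 there were 13, of which 10 were higher and 3 lower in deep cultures; that is 24.5% of the pathway genes and 15.5% of all named genes. Both deep arrays were above both shallow arrays for 22 of the 53 genes (41.5%, against 23.7% of all named genes) and below them for 5 (9.43%, against 28.4%). The median log2 difference was 0.24, against -0.04 over all named genes. The lists were drawn up with earlier results known, and the fibroblast markers were also higher in deep cultures, with a median log2 difference of 0.99 and all 9 not overlapping.

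Genes of retinol uptake and storage showed no common direction. Of 19 listed, 12 were on the array and 4 passed the filter, with a median log2 difference of -0.01 and 0 calls. SCARB1, a scavenger receptor that takes up lipoproteins and carotenoids, read 103 and 132 on the deep arrays and 225 and 135 on the shallow arrays (log2 difference -0.57 ± 0.37, SE). LIPA, the lysosomal acid lipase, read 841 and 1137 on the deep arrays and 555 and 809 on the shallow arrays (0.55 ± 0.26). DGAT1, which can esterify retinol, differed by -0.17 ± 0.39, with opposite signs in the pigs. The small retinol-binding proteins RBP2, RBP5 and RBP7 were below background on every array.

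Of 18 listed oxidoreductases of retinol and retinaldehyde, 5 were on the array and 4 passed the filter, with a median of 0.23 and 0 calls. They include reductases, which work from retinaldehyde to retinol, so the values do not describe retinaldehyde formation alone. RDH11, a microsomal retinal reductase, was the lowest. It read 750 and 1253 on the deep arrays of pig 1 and pig 2, against 1557 and 1649 on the shallow arrays, without overlap (log2 difference -0.73 ± 0.29, SE; limma, adjusted p = 0.317). RDH14 read 218 and 138 on the deep arrays and 98.6 and 138 on the shallow arrays (0.57 ± 0.38), a difference of 1.15 in pig 1 and -0.01 in pig 2. DHRS4, a short-chain reductase, differed by 0.28 ± 0.50 at a signal near background.

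Other aldehyde dehydrogenases did not share the ALDH1A1 difference in size. Of 17 listed, 10 were on the array and 8 passed the filter, with log2 differences from -0.11 to 1.28, a median of 0.15 and 0 calls. ALDH1L1 did not pass the filter and was not tested. It read 32.3 and 30.2 on the deep arrays and 3.12 and 15.8 on the shallow arrays, a log2 difference of 2.15. It was above background on 1 array of each depth. ALDH2, the mitochondrial enzyme that oxidizes acetaldehyde, read 1699 and 1831 on the deep arrays, against 975 and 1112 on the shallow arrays. Its difference was alike in the pigs, 0.80 and 0.72 on the log2 scale, with a mean of 0.76 ± 0.26 (SE; limma, adjusted p = 0.253). ALDH3A2, the fatty aldehyde dehydrogenase, differed by 0.48 ± 0.29. ALDH1L2, a mitochondrial folate enzyme, read 55.9 and 52.8 on the deep arrays and 12.2 and 41.1 on the shallow arrays (1.28 ± 0.56; limma, adjusted p = 0.362). Its difference rested on the shallow array of pig 1, which was below background, and was 0.40 without it. The difference between ALDH1A1 and these genes was not tested, since ALDH1A1 was picked for its size.

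**Figure D3:**
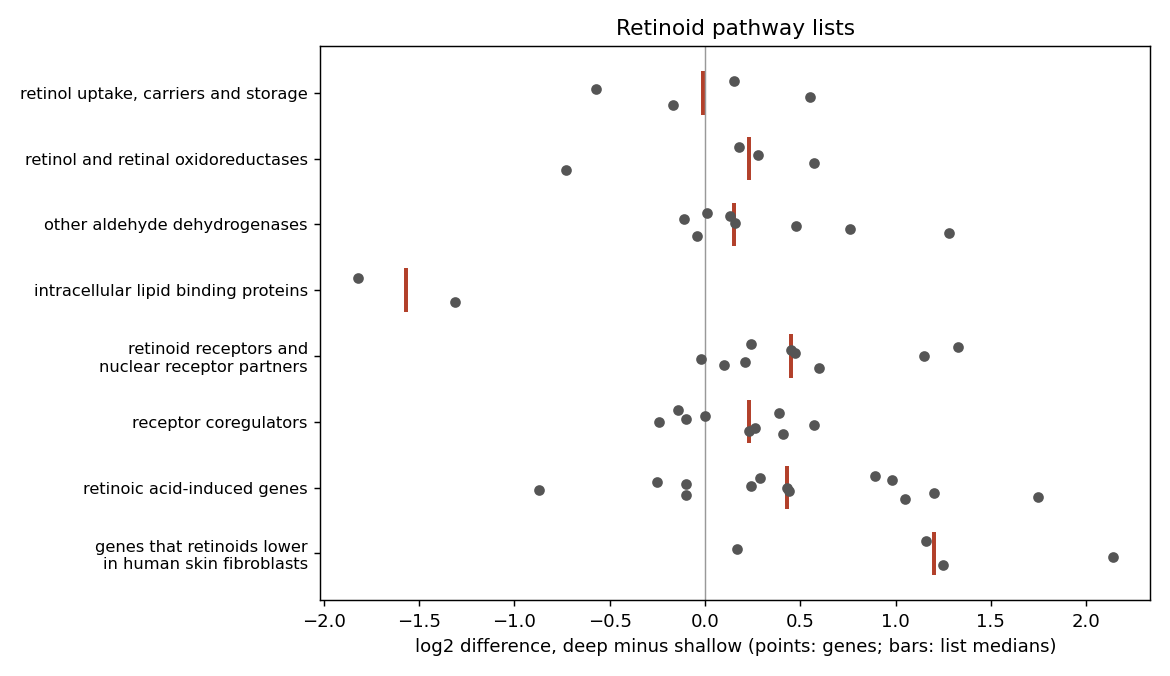
Log2 difference, deep minus shallow, of each pathway gene past the filter (points), by list, with the list's median (red bars); the list of retinoic acid clearance had no gene past the filter. Medians run from -1.57 for the intracellular lipid binding proteins, which had 2 genes, to 1.20 for genes that retinoids lower in human skin fibroblasts, which had 4.

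Retinoic acid clearance and intracellular carriage were thinly covered. CYP26A1, which breaks down retinoic acid and is induced by it, was the 1 clearance enzyme of 8 listed on the array and did not pass the filter. It read 4.09 and 8.26 on the deep arrays, against 23.3 and 5.77 on the shallow arrays, above background on the shallow array of pig 1 alone. Of the intracellular lipid binding proteins, relatives of CRABP2, 7 of 8 were on the array and 2 passed the filter, with a median of -1.57 and 0 calls. FABP5, a fatty acid carrier that can also bind retinoic acid, read 77.3 and 36.2 on the deep arrays of pig 1 and pig 2, against 380 and 91.9 on the shallow arrays. Both deep arrays were below both shallow arrays (log2 difference -1.82 ± 0.38, SE; limma, adjusted p = 0.0967). The FABP5 difference was -0.80 when the shallow array of pig 1, where the epithelial markers were high, was left out, and -2.85 when that of pig 2 was. FABP3, the heart-type fatty acid carrier, read 111 and 248 on the deep arrays and 795 and 213 on the shallow arrays, and its signs were opposite in the pigs; the mean of -1.31 became -0.37 without the shallow array of pig 1. The part of the epithelial signal in either gene was not tested.

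Most receptor partners past the filter had a positive difference, with 0 calls. Of 19 nuclear receptors listed, 13 were on the array and 9 passed the filter. The 4 below it are not in the counts that follow. A positive difference was seen for 8 of the 9, and the share of positive differences over all named genes was not taken. The median was 0.45, against -0.04 over all named genes past the filter. For 5 the deep arrays were wholly above the shallow ones (23.7% of all named genes were). The fibroblast markers, with a median of 0.99, were higher in deep cultures too; their part was not tested. RXRB, the beta retinoid X receptor, read 82.8 and 119 on the deep arrays of pig 1 and pig 2, against 56.8 and 75.6 on the shallow arrays. It differed by 0.60 ± 0.36 on the log2 scale (SE; limma, adjusted p = 0.513), with 0.54 in pig 1 and 0.66 in pig 2. NR4A2, an orphan receptor that can pair with retinoid X receptors, read 760 and 1463 on the deep arrays and 290 and 606 on the shallow arrays. Its difference of 1.33 ± 0.27 was alike in the pigs, at 1.39 and 1.27 (limma, adjusted p = 0.0863). NR2F1, an orphan receptor that retinoic acid induces in embryonic cells, read 97.5 and 131 on the deep arrays and 42.4 and 61.1 on the shallow arrays (1.15 ± 0.37; limma, adjusted p = 0.228). RXRG, the gamma retinoid X receptor, was above background on the shallow array of pig 2 alone.

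Receptor coregulators differed little between depths. Of 20 listed, 10 were on the array and 9 passed the filter, with log2 differences from -0.24 to 0.57, a median of 0.23 and 0 calls. The largest differences were 0.57 ± 0.40 for NCOA7, 0.41 ± 0.38 for NCOA1 and 0.39 ± 0.33 for TRIM24 (SE). NCOA1, a steroid receptor coactivator, had opposite signs in the pigs.

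Genes that retinoic acid is known to induce in various cells had a median log2 difference of 0.43, against -0.04 over all named genes past the filter. Of 30 listed, 13 passed the filter, with 0 calls. Of these 13, 9 differences were positive and 4 negative, and for 6 the deep arrays lay wholly above the shallow ones, against 23.7% of all named genes. RARRES2, the secreted attractant chemerin, was the largest. It read 127 and 133 on the deep arrays of pig 1 and pig 2, against 35.3 and 42.2 on the shallow arrays. The replicates were close and the depths did not overlap, but the difference did not pass: the deep arrays were higher by 1.75 ± 0.38 on the log2 scale (SE; limma, adjusted p = 0.0973), a value that was 1.62 to 1.88 with any 1 array left out. MEIS2, a homeobox factor, read 373 and 284 on the deep arrays and 127 and 158 on the shallow arrays (1.20 ± 0.32; limma, adjusted p = 0.165).

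RARRES1, a gene first described by its response to a synthetic retinoid in skin, read 8864 and 13870 on the deep arrays, against 3324 and 8641 on the shallow arrays. Its lower deep array was barely above its higher shallow array, and the log2 difference of 1.05 ± 0.32 (SE; limma, adjusted p = 0.203) was 0.36 without the shallow array of pig 1. With quantile normalization it was 0.50. PLAT, tissue plasminogen activator, went the other way, with 159 and 274 on the deep arrays and 344 and 425 on the shallow arrays; it is named here after its value was seen.

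Genes that retinoids are known to lower in human skin fibroblasts had positive differences where measured. Of 8 listed, 4 passed the filter, CYR61, IL6, MMP1 and MMP3, all higher on average in deep cultures, and 0 were called. Their median was 1.20, against -0.04 over all named genes past the filter. It was 0.75 with quantile normalization and ran from 0.69 to 1.79 with an array left out, lowest without the deep array of pig 2. The stromelysin MMP3 read 4081 and 12553 on the deep arrays, against 2772 and 953 on the shallow arrays, with a log2 difference of 0.56 in pig 1 and 3.72 in pig 2. The collagenase MMP1 read 14686 and 29992 on the deep arrays and 9223 and 8449 on the shallow arrays. Its log2 difference of 1.25 was 0.42 with quantile normalization. IL6, an inflammatory cytokine, had opposite signs in the pigs, -0.45 in pig 1 and 2.77 in pig 2. So did CYR61, at 0.39 in pig 1 and -0.05 in pig 2. The arrays measure messenger RNA, and retinoic acid itself was not measured.

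Among the 5271 other named genes past the filter, ASPN had the profile nearest to that of ALDH1A1 over the 4 arrays. Likeness was taken as the Euclidean distance between log2 signals, each gene centred on its own mean, and the median distance to ALDH1A1 was 4.47. ASPN, the small leucine-rich proteoglycan asporin, lay at 0.81, nearer than the second ALDH1A1 probeset at 1.74. It read 246 and 1257 on the deep arrays of pig 1 and pig 2, against 37.2 and 19.7 on the shallow arrays. The order of the 4 arrays was the one seen for ALDH1A1, with the deep array of pig 2 highest and the shallow array of pig 2 lowest.

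The next 5 genes lay at distances from 1.80 to 1.97. They were MAP2, a microtubule-associated protein, SERPINA6, corticosteroid-binding globulin, AGTR1, the type 1 angiotensin II receptor, PTN, the growth factor pleiotrophin, and MMP3. MAP2 was below background on 1 array. MAP2 and MMP3 shared with ALDH1A1 the order of the 4 arrays and a larger difference in pig 2 than in pig 1, at 4.02 against 0.63 for MAP2 on the log2 scale. SERPINA6, AGTR1 and PTN had differences of similar size in both pigs, 4.89 in pig 2 and 4.32 in pig 1 for SERPINA6, and 3.04 and 2.53 for PTN. With 4 arrays a near profile describes these cultures and carries no test.

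**Figure D4:**
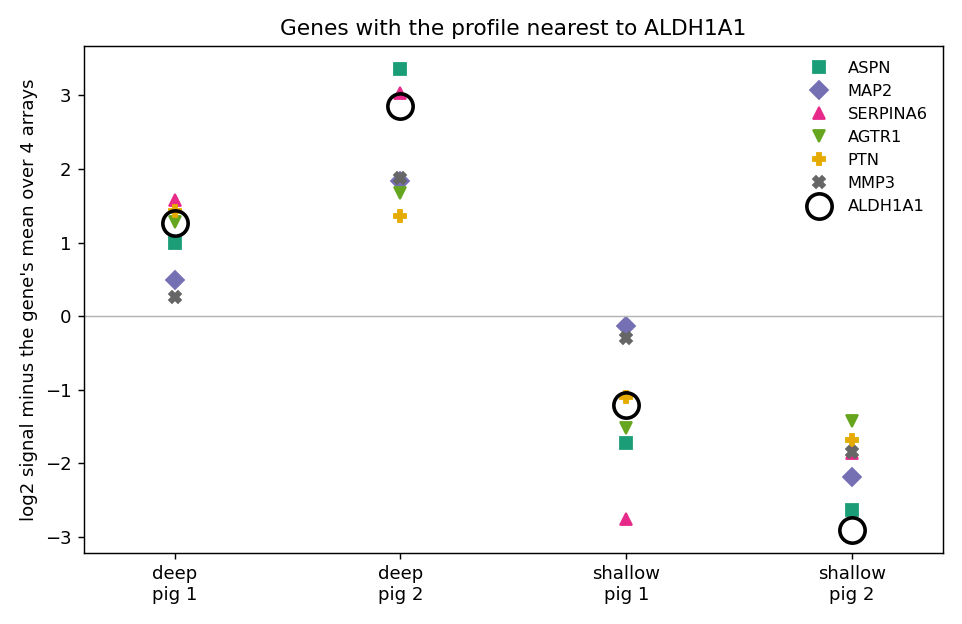
Log2 signal of ALDH1A1 (open circles) and of the 6 genes with the nearest profile on the 4 arrays, each gene centred on its mean. ALDH1A1 lies at 1.26 and 2.85 on the deep arrays of pig 1 and pig 2 and at -1.21 and -2.90 on the shallow arrays, and ASPN follows it most closely.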

How the data were processed

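Total RNA from confluent fibroblast cultures was hybridized to a porcine Affymetrix array, 1 array per culture. The authors deposited 1 linear signal intensity per probeset and array. Per the submitters' processing notes the tools were MAS5 and GCOS 1.0, and the trimmed mean was 250.1 on each array. The scaling target and detection calls are not given in the sources used here. An array has no read depth; precision is limited by how many arrays there are.

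After removal of 124 controls from 24123 probesets, signals under 1 were set to 1 and taken to log2, and the dimmest 40% by mean log2 signal (under 27.1) were dropped, leaving 14399. Depths were compared by limma 3.58.1 (lmFit, then eBayes with a trend on mean signal; R 4.3.3) with a term for the pig, 1 residual and 6.88 prior degrees of freedom. Benjamini-Hochberg adjustment covered all 14399 probesets, at a threshold of 0.05. The pairing comes from the series design and the titles, which name each sample's partner by a number read here as its place in the sample list. Across probesets, same-pig arrays deviated from the means of their depths with a correlation of -0.01. The code was checked on simulated data with known changes.

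The platform annotation gave a single symbol for 10069 probesets, more than 1 for 198 and no symbol for 13732. Each gene is given by its brightest probeset (mean log2 signal over the 4 arrays). The absent controls were the 23 tag and TrpnX probesets, and a gene was called above background on an array where it exceeded the highest of them.

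The members, pathway lists and marker lists were chosen with earlier results of these data known. From each list the text names the genes past the threshold, or otherwise the 3 with the largest absolute difference past the filter. The 6 genes nearest to ALDH1A1 had the smallest Euclidean distance of centred log2 signals. Alternatives left out the pig, the filter or the trend, raised the floor to 16, used quantile normalization, median centring or a gene's other probeset, or left out each array in turn. The deep array of pig 1 against the shallow array of pig 2 was added after seeing the data.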

Additional observations from a re-analysis of the deposited data

How the results depend on the processing

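The count of 0 calls for RARB and RXRA, or for the 5 genes other than ALDH1A1 without the filter, held under every alternative run. So did the 0 calls among the pathway genes, apart from fits that leave out an array: these gave 0 to 8, with 2 when shallow pig 1 was left out and 8 when shallow pig 2 was. Over all probesets the 49 calls became 0 without the replicate block, 0 without the filter, 96 with quantile normalization, 5 with median centring and 3 without the mean-variance trend, and 0 to 1597 with an array left out. Fits without an array drop the pig block and assume that the lone array varies like the other depth, so their counts are not comparable with those of the main fit. Without the replicate block the adjusted p was 0.470 for RARB and 0.641 for RXRA; the block changed no call of a retinoid gene. ALDH1A1 lay between 3.26 and 4.95 on the log2 scale under all alternatives run on its brightest probeset. The difference of DGAT1 ran from -0.49 to 0.14 with an array left out, turning positive without the deep array of pig 2, and was 0.05 with the deep array of pig 1 against the shallow array of pig 2 alone; the cause was not tested. Signals near background limit what can be said of RARA, RARB, RXRA, RBP4 and CRABP2.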

Other observations

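Some retinoid genes were above background on a single array, a pattern looked for after the values were seen. Of 84 retinoid genes on the array, CRABP2, CYP26A1, FOXA1 and PPARG exceeded the highest absent control on the shallow array of pig 1 and no other. PPARG, the adipocyte nuclear receptor, read 0.495 and 2.00 on the deep arrays of pig 1 and pig 2, against 49.3 and 1.80 on the shallow arrays. A further 4, AKR1C1, LIPE, LRP2 and RXRG, did so on the shallow array of pig 2, and 0 on either deep array. These counts depend on the cut-off, which was 14.8 and 13.6 on the shallow arrays against 21.8 and 30.9 on the deep arrays. LIPE read 16.4 on the deep array of pig 1, below that array's cut-off but above its 14.3 on the shallow array of pig 2. Over all 6765 named genes, 0.340% and 0.547% were above background on the deep array of pig 1 or pig 2 alone, against 1.94% and 2.96% on the shallow array of pig 1 or pig 2 alone. GPRC5A, a retinoic acid-inducible membrane protein, read 46.2 and 70.5 on the deep arrays and 219 and 17.1 on the shallow arrays, with opposite signs in the pigs.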
